A study of Mus musculus with 8 samples.

Results

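Somatostatin, its relative cortistatin and the somatostatin receptors were followed by the probes for Sst, Cort, Sstr1, Sstr2, Sstr3, Sstr4 and Sstr5, found by matching the gene name printed beside each probe in the scanner files. These 7 genes, of 36083 named on the array, had 8 of its 55681 probes and 17 spots: Sst had 1 probe printed at 10 spots, Sstr1 had 2 probes, and each other gene had 1 probe at 1 spot. Mouse embryos of stage E18.5 gave whole small intestine, which was compared between 4 wild-type controls (Rfx6+/+) and 4 homozygous knockouts (Rfx6-/-), each on its own 1-colour Agilent array, to find genes regulated by the transcription factor Rfx6. The knockout came from a floxed allele (Rfx6f/+) recombined by CMV-Cre, a transgene active in all tissues, after which Rfx6+/- heterozygotes were intercrossed, so Rfx6 was missing throughout the embryo and not in the intestine alone. The labels name no strain and do not say whether each sample was a separate embryo, so every p-value here measures the spread between these samples, which may in part be technical.

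Somatostatin is a small peptide cut from the precursor encoded by Sst. In the gut it is made by D cells, an enteroendocrine cell type, and by some enteric neurons, and it is also made by delta cells of the pancreatic islet. Released locally, it holds back secretion of gut and islet hormones through receptors that couple to inhibitory G proteins, lower cyclic AMP and act on potassium and calcium channels. Cortistatin, encoded by Cort, shares the core of the somatostatin peptide and binds the same receptors.

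The probes read different stretches of these transcripts, and for 3 of them the letters show a stop codon or a polyadenylation signal. The first 30 bases of the Sst probe, with the stop codon in capitals, hold the last 6 codons of the somatostatin reading frame, so the probe reads the hormone-coding end of the transcript and the start of what follows it. The last 30 bases of the Cort and Sstr3 probes hold the polyadenylation signal AATAAA, in capitals, which places both probes at the end of their transcripts. The remaining 3 sequences are whole probes with at least 1 reading frame free of stop codons; they are shown as the receptor probes that could lie in coding sequence.
Sst: aagacattcacatcctgtTAGctttaatat
Cort: acgagacctgAATAAAgactgtcaatcagc
Sstr3: gagcgcctatcAATAAAgacagtgactaag
Sstr1: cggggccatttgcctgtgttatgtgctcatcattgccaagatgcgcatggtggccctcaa
Sstr2: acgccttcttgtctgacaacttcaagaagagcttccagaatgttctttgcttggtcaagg
Sstr4: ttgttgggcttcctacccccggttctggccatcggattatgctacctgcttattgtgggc

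On mouse build mm9, as the scanner files give it, the Sst probe lies at chr16:23889776-23889835 on the minus strand and starts at base 430 of its transcript. The Cort probe lies at chr4:148499300-148499359 on the minus strand. The Sstr1 probes lie at chr12:59314287-59314346 and chr12:59316670-59316729 on the plus strand, at transcript bases 1132 and 3515. The Sstr2 probe spans chr11:113486505-113486903 on the plus strand, 399 genomic bases for a probe of 60, so it crosses a gap of 339 bases, as a probe over an exon junction does. Sstr3 was read at chr15:78367445-78367504 on the minus strand, Sstr4 at chr2:148221846-148221905 on the plus strand and Sstr5 at chr17:25626870-25626929 on the minus strand. An mm9 gene annotation was not used here, so exon and UTR labels are not given beyond what these letters and spans show.

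A level here is the log2 of the processed signal minus the log2 of the array's 75th percentile, and a difference is knockout minus control. Across the whole set, 23288 genes with a probe well above background on all 4 arrays of a group were tested with limma, and 1084 (4.65%) passed a Benjamini-Hochberg adjusted p of 0.05: 551 lower and 533 higher in the knockout. Lower calls were 50.8% of all calls, and 30.5% when arrays were centred on their median instead. Array 75th percentiles ran from 637 to 746 signal units, 57.6% to 67.2% of probes were well above background, and no gene's spot was saturated. The Rfx6 probe was above background on 8 of 8 arrays, from -3.75 to -2.93 in controls and from -3.37 to -2.25 in knockouts, a difference of 0.39 ± 0.29 (SE, adjusted p = 0.506, limma). The deleted part of the gene is not given in the sources used here, and a probe outside it would not check the labels. Groups are therefore called by their labels.

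Of the 6 genes of the somatostatin family and its receptors that were tested, 1 was lower in the knockout and 0 were higher. The lower gene was Sst, which is 16.7% of those tested, beside 2.37% of all genes tested that were lower and 2.29% that were higher. With so few members the share describes Sst alone. Sst fell 112-fold on the background-subtracted signal with each knockout array held at no less than its lowest level well above background. Of the knockout arrays, 3 of 4 read Sst at background, so this figure depends on that setting. With normexp background correction and an offset of 50 signal units, its difference was -4.99 on the log2 scale. Cort and the 4 receptor genes tested had differences between -0.25 and 0.12 and did not pass. Sstr2, with 0 of 8 arrays above background, was not tested. The median difference over the 6 genes was -0.041, beside -0.047 over all genes tested. Levels of different probes cannot be set against each other, since probes bind with different strength, so no order of abundance among the receptors is given.

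Sst, the hormone gene, had levels of 2.01, 1.73, 2.02 and 1.97 in controls 1 to 4 and of -5.77, -5.45, -5.51 and -4.82 in knockouts 1 to 4. In scanner units these were 2670.5, 2343, 2625 and 2754 in the controls and 13.7, 15.7, 15.7 and 22.5 in the knockouts. Every control lay far above every knockout, and the groups did not overlap. The means were 1.93 ± 0.14 and -5.39 ± 0.40 (SD, n = 4 each), a difference of -7.32 ± 0.19 (SE; 95% interval -7.75 to -6.90; limma adjusted p = 1.2e-07). In bulk RNA of a whole tissue, fewer Sst-expressing cells and less Sst RNA per cell cannot be told apart.

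The knockout level of Sst was mostly that of background. Sst was well above background on 4 of 4 control arrays and on 1 of 4 knockout arrays, knockout 4. For each array a limit was taken as the lowest level of any probe well above background. That limit was lowest on knockout 4, at -5.32, against -4.23 on the array with the highest limit. Setting each knockout array at the higher of its own Sst level and this limit gave a fall of 112-fold. Some Sst spots not well above background lay above the limit, as at -4.95 on knockout 4, so 112-fold is not a strict bound. The size of the fall thus rests on how background was treated. It was -4.99 with normexp background correction, which added an offset of 50 signal units. That offset is larger than the processed Sst signals of the knockouts, 13.7 to 22.5, so -4.99 depends on it. The fall was -5.00 with the series matrix values, whose background treatment is unstated and whose ranks follow the unsubtracted spot medians (Spearman 1.00). Both passed the test (adjusted p = 2.0e-09 and 4.7e-10, limma). Requiring a signal well above background on all 8 arrays removed Sst from the test.

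The 10 spots of the Sst probe were scattered over the slide and gave a repeat measure within each array. In controls, 40 of 40 spots were well above background, with medians of 2656, 2339, 2624 and 2776 signal units. In knockouts, 11 of 40 were: 1, 1, 2 and 7 spots in knockouts 1 to 4. The SD of log2 signal among spots was 0.040 to 0.057 within control arrays, below the SD of 0.14 between control arrays, so the spread among controls was larger than the spread of repeat spots. Within knockout arrays it was 0.37 to 0.64, wider than in any control array, and the SD between knockout arrays was 0.40. The fifth of the 10 spots was the highest on 4 of 4 knockout arrays, at 64.0, 31.5, 38.4 and 38.6 signal units. The scanner software set it aside as an outlier in knockouts 1, 2 and 3. After that, 8 of 37 knockout spots were well above background.

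**Figure D1:**
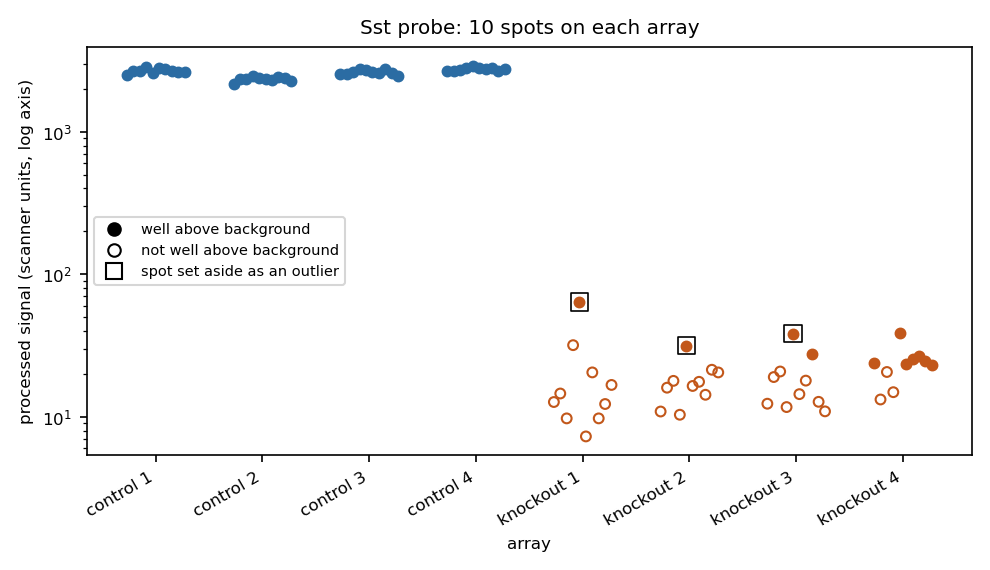
Processed signal of each of the 10 Sst spots on each array, in scanner units on a log axis, with controls in blue and knockouts in orange; filled points were well above background, open points were not, and black squares mark spots set aside as outliers. All control spots lie between 2179 and 2915, while knockout spots lie between 7.28 and 64.0 and only 11 of 40 are filled.

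Arrays sat in 2 rows of 1 slide, and the groups were spread unevenly over them. Sst differed by -7.27 in row 1 (control 1 against knockouts 2, 3 and 4) and by -7.67 in row 2 (controls 2, 3 and 4 against knockout 1). Sst was thus lower in the knockout in both rows. The sizes rest on 1 control in row 1 and 1 knockout in row 2, and on background, so whether they differ was not tested. Over the other probes of the family the within-row differences lay between -0.23 and 0.18.

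Sst is read here from a tissue that could hold other sources of its RNA, and lists of marker genes were measured beside it. Enteric neuron markers showed 0 of 9 tested genes past the threshold, beside 4.65% of all genes tested, with differences between -0.08 and 0.23. Their summed level was 3.15 to 3.62 in controls and 3.45 to 3.70 in knockouts. Of 6 exocrine pancreas markers, 5 were tested and above background on every array, and 0 passed the threshold, with summed levels of 3.00 to 4.64 and 2.44 to 4.14. The part of exocrine tissue in the Sst result was not tested.

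In 3 other lists some markers passed the threshold, beside 4.65% of all genes tested. The last of these lists marks the sampled tissue itself. Endocrine pancreas markers were lower in 3 of 3 tested, with summed levels of 0.44 to 1.18 in controls and -0.78 to -0.55 in knockouts; these are Iapp, Ins1 and Ins2, and a further marker, Ppy, was not tested. Stomach markers were higher in 5 of 7, with summed levels of -0.73 to 1.58 in controls and 8.50 to 9.41 in knockouts. Of these 7 markers, 3 to 4 were above background on each control array and 7 on each knockout array. Those not above background on all controls entered the test only through the knockouts, where they were high, and their differences depend on background. Small intestinal epithelium markers were lower in 2 of 8 (Fabp1 and Lct), with summed levels of 10.56 to 10.73 and 10.01 to 10.25. Fabp2, Cdx1, Cdx2, Vil1, Epcam and Cdh1 did not pass. The stomach also has D cells. The part of the tissues marked by these lists in the Sst result was not tested. Leukocyte markers showed 0 of 6 past the threshold (6.09 to 6.36 in controls, 6.03 to 6.18 in knockouts).

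Cort, encoding the second ligand of the same receptors, had levels of -1.12, -1.10, -1.09 and -1.15 in controls 1 to 4 and of -1.28, -1.26, -1.03 and -1.14 in knockouts 1 to 4. Its probe was above background throughout, and the groups overlapped, with knockout 3 the highest array and knockout 1 the lowest. The difference was -0.064 ± 0.080 (SE; 95% interval -0.24 to 0.12; limma adjusted p = 0.690). On the linear scale the interval runs from 0.844 to 1.08 times the control level. A fall of the size seen for Sst lies far outside this interval.

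**Figure D2:**
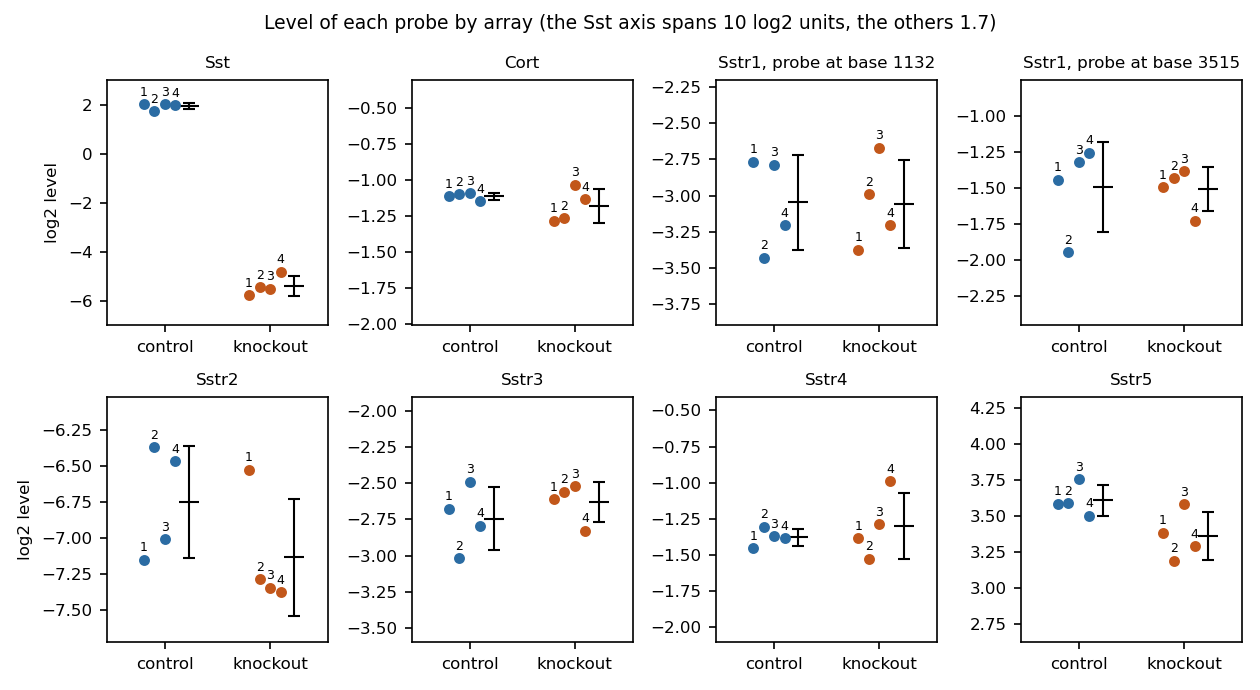
Level of each of the 8 probes (log2 of signal relative to the array's 75th percentile) in controls (blue) and knockouts (orange), numbered by replicate, with the mean and SD of each group in black. The Sst axis covers a much wider range than the other 7, which all share one width.

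The receptors were read as a group of 5 genes, of which 4 could be tested and 0 passed the threshold, beside 4.65% of all genes tested. Sstr5, a receptor known from islet and gut endocrine cells, came nearest. Its levels were 3.59, 3.59, 3.76 and 3.50 in controls 1 to 4 and 3.38, 3.19, 3.58 and 3.29 in knockouts 1 to 4. The groups overlapped through knockout 3, which lay above control 4, while the other knockouts were below every control. The difference was -0.25 ± 0.10 (SE; 95% interval -0.48 to -0.013), with an unadjusted p of 0.0406 that became 0.228 after limma's p-values were adjusted over all genes. It was -0.23 in each slide row. Of the 8 small intestinal epithelium markers, 2 were lower, as given above, and their part in the Sstr5 value was not tested.

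Sstr1 had 2 probes, and they were concordant in showing no resolved difference. At base 3515 its levels were -1.44, -1.95, -1.32 and -1.26 in controls and -1.50, -1.43, -1.38 and -1.73 in knockouts. At base 1132 they were -2.76, -3.43, -2.79 and -3.21 in controls and -3.37, -2.99, -2.67 and -3.21 in knockouts. Control 2 was the lowest control on both probes, and the groups overlapped on both. The differences were -0.017 (95% interval -0.37 to 0.34, adjusted p = 0.964) and -0.013 (-0.46 to 0.43, adjusted p = 0.980) in limma, the latter with every probe tested. The sign of the first was not fixed: it turned to 0.0043 with quantile normalization, 0.046 with median centring and 0.016 with the series matrix. With the slide rows taken apart, the probe at base 1132 differed by -0.19 in row 1 and -0.23 in row 2. At base 3515 these values were -0.070 and 0.012. Groups were spread unevenly over the rows, with 1 control in row 1 and 1 knockout in row 2, so these values rest on single arrays. With slide row as a block, the difference at base 3515 was -0.029 (limma adjusted p = 0.946). A part of slide row in the value at base 1132 was not tested. The 95% intervals hold changes in either direction, so the data do not show that Sstr1 was the same in both groups.

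Sstr3, a receptor best known from neurons, had levels of -2.68, -3.02, -2.49 and -2.79 in controls and of -2.61, -2.56, -2.52 and -2.83 in knockouts. Control 2 was the lowest array and control 3 the highest, so all 4 knockouts lay inside the range of the controls. The difference was 0.12 ± 0.12 (SE; 95% interval -0.17 to 0.40; limma adjusted p = 0.640). It was 0.025 without control 2 and 0.018 with normexp.

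Sstr4, the remaining receptor with a measurable signal, had levels of -1.45, -1.31, -1.37 and -1.39 in controls and of -1.39, -1.53, -1.29 and -0.99 in knockouts. Knockout 4 was the highest array and knockout 2 the lowest, and the groups overlapped. The difference was 0.082 ± 0.12 (SE; 95% interval -0.18 to 0.35; limma adjusted p = 0.730). It turned to -0.022 without knockout 4.

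Sstr2, a receptor through which somatostatin acts on many endocrine cells, had levels of -7.15, -6.37, -7.01 and -6.47 in controls and of -6.53, -7.29, -7.34 and -7.38 in knockouts. None of the 8 arrays was well above background for this probe. All of these levels lie below the lowest levels of any probe well above background, -5.32 to -4.23. They have no reading as amounts of Sstr2 RNA, and no fold is given.

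**Figure D3:**
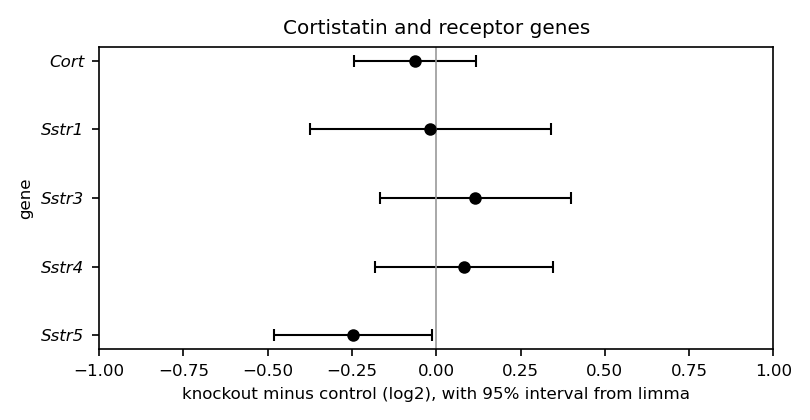
Knockout minus control difference (log2) for Cort and the 4 receptor genes tested, with points for the limma estimate and bars for its 95% interval. Intervals of Cort, Sstr1, Sstr3 and Sstr4 span 0, and that of Sstr5 runs from -0.48 to -0.013 before adjustment over all genes.

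The same arrays were extreme for several members. Control 2 was the lowest control for Sst, Sstr3 and both Sstr1 probes, and the highest control for Sstr4. Knockout 4 was the highest knockout for Sst and Sstr4, and the lowest for Sstr3 and for Sstr1 at base 3515. Knockout 3 was the highest knockout for Cort, Sstr3, Sstr5 and both Sstr1 probes. Control 3 was the highest control for Sst, Cort, Sstr3 and Sstr5. Control 2 had 58.0% of probes well above background, but control 4 and knockout 1 had fewer, at 57.8% and 57.6%. Knockout 4 had the most, at 67.2%, while knockout 3 had 64.5% and control 3 had 63.5%. Whether detection moved these levels was not tested.

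Sst stood beside other hormone genes in its profile over the 8 arrays. After each gene was centred on its own mean, the 5 genes at the smallest root mean square distance from Sst were Ghrl (ghrelin) at 0.37, Nts (neurotensin) at 0.42, Gcg (proglucagon, source of GLP-1) at 0.68, Gip (glucose-dependent insulinotropic polypeptide) at 0.79 and Cck (cholecystokinin) at 1.11 log2 units. The distance is set almost entirely by the step between the groups, so it too depends on background. With normexp, an alternative added after the data were seen, the same 5 genes were nearest in another order: Gcg at 0.11, Cck at 0.14, Nts at 0.23, Gip at 0.26 and Ghrl at 0.65. These distances depend on the normexp offset of 50 signal units.

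Ghrl had levels of 4.40, 4.49, 4.27 and 4.19 in controls and of -2.62, -2.56, -2.37 and -2.50 in knockouts, a difference of -6.85 ± 0.094 (SE, limma adjusted p = 4.1e-09). Ghrl, Nts and Cck stayed above background on 4 of 4 knockout arrays, so their remaining signals were measured. Nts differed by -6.56 ± 0.16 (adjusted p = 1.2e-07, limma) and Cck by -5.16 ± 0.091 (adjusted p = 1.1e-08). Gcg and Gip were above background on no knockout array. With those arrays held at the same limit as for Sst, they fell by 111-fold and 172-fold, which are not strict bounds either. Sst, with 1 of 4 knockout arrays above background, lay between these cases. With normexp and the same offset of 50, the differences were -6.26 for Ghrl, -5.39 for Nts, -5.02 for Cck, -5.07 for Gcg and -5.48 for Gip, beside -4.99 for Sst.

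**Figure D4:**
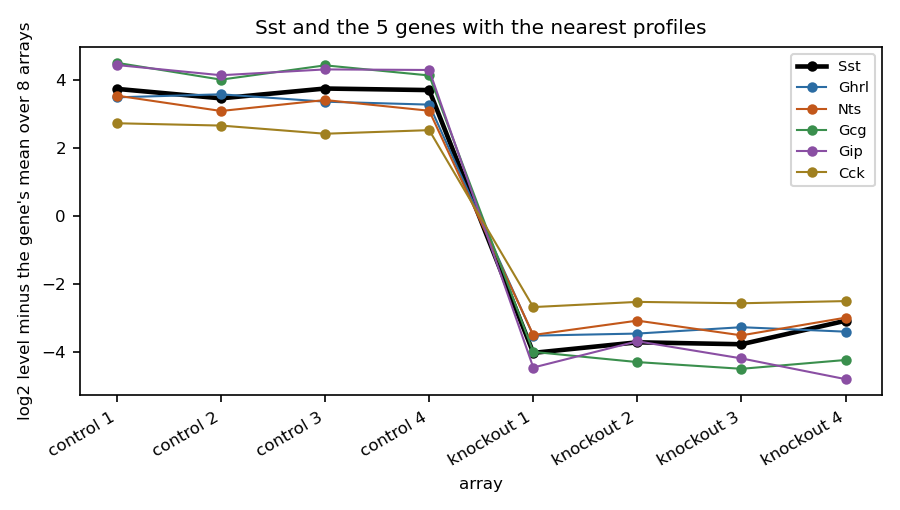
Log2 level of Sst (thick black line) and of its 5 nearest genes on each array, each minus its own mean over the 8 arrays. All 6 genes step down between controls and knockouts, and the order of their steps depends on how background is treated, since Sst, Gcg and Gip reach background in the knockout.

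Genes that make somatostatin or carry its signal were then read from lists of 70 genes, of which 59 were tested. Of these, 10 were lower and 0 higher, beside 2.37% lower and 2.29% higher over all genes tested. Their median difference was -0.025, beside -0.047 over all genes. Nearly all of the calls lay among the hormones. Of 11 gut and islet hormone genes whose secretion somatostatin is known to inhibit, 9 were lower and 0 higher, with a median of -2.65: Gip, Gcg, Ghrl, Nts, Cck, Ins1, Sct, Insl5 and Ins2. Among the other genes that passed, Ins1 (insulin) differed by -2.27 and Sct (secretin) by -1.55. Pyy (peptide YY) differed by -2.65 ± 0.87 (SE, limma adjusted p = 0.134) and Gast (gastrin) by -0.15 ± 0.11 (adjusted p = 0.463), and neither passed. Insl5 and Ins2 lay near the threshold (adjusted p = 0.0440 and 0.0267, limma) and were not stable: Ins2 lost its call without control 1 or 3 or any 1 of the knockouts, and Insl5 without control 1, 3 or 4 or knockout 1, 2 or 4.

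Of 15 transcription factors of endocrine and D cells reported here, 10 were tested. In limma 0 were lower or higher after adjustment, beside 4.65% of all genes tested. Before adjustment 4 had a p under 0.05, beside 4643 of all 23288 genes tested. Hhex, a homeobox factor known to be needed by islet delta cells, differed by 0.37 ± 0.11 (SE, adjusted p = 0.114). Pdx1, a factor of the duodenum and islet that binds the Sst promoter, differed by -1.09 ± 0.28 (adjusted p = 0.0671). Neurog3, which starts endocrine fate, differed by 0.47 ± 0.13 (adjusted p = 0.0862). Isl1, a homeobox factor of islet and gut endocrine cells, differed by -0.86 ± 0.25 (adjusted p = 0.0954). These 4 did not pass. Neurod1, Pax6, Mnx1, Myt1 and St18 were not well above background on all arrays of either group.

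Of 12 genes for cutting prohormones and building secretory granules, 1 was lower and 0 were higher, with a median of 0.012. Over all genes tested, 2.37% were lower and 2.29% higher. The lower gene was Scg2 (secretogranin II, a granule protein), with levels of 1.07, 0.51, 1.17 and 0.94 in controls and of -0.15, -0.03, -0.22 and -0.89 in knockouts. The groups did not overlap, and the difference was -1.24 ± 0.21 (SE, limma adjusted p = 0.0128). The convertases that cut prosomatostatin did not pass: Pcsk1 differed by -0.11 ± 0.10 (adjusted p = 0.582), Pcsk2 by -0.14 ± 0.072 (adjusted p = 0.321) and Furin by 0.23 ± 0.12 (adjusted p = 0.333). Chga (chromogranin A), a general marker of endocrine granules, differed by 0.26 ± 0.23 (adjusted p = 0.564).

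Downstream of the receptors, 0 of 17 tested genes for inhibitory G proteins, adenylyl cyclases, arrestins and phosphatases passed, beside 4.65% of all genes tested. Their median was 0.087, with differences between -0.29 and 0.58. The nearest to the threshold was the adenylyl cyclase gene Adcy2, at 0.58 ± 0.14 (SE, limma adjusted p = 0.0597), which passed under normexp, quantile normalization, median centring, the series matrix values and slide row as a block. Of 8 potassium and calcium channel genes, 3 were tested and 0 passed. All 4 inward rectifier genes on the list (Kcnj3, Kcnj5, Kcnj6 and Kcnj9) went untested for lack of signal. Of 6 genes for scaffold proteins that bind receptor tails, 0 passed, and Pdzk1 had the largest fall in level among them, by 0.27 on the log2 scale (adjusted p = 0.195).

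**Figure D5:**
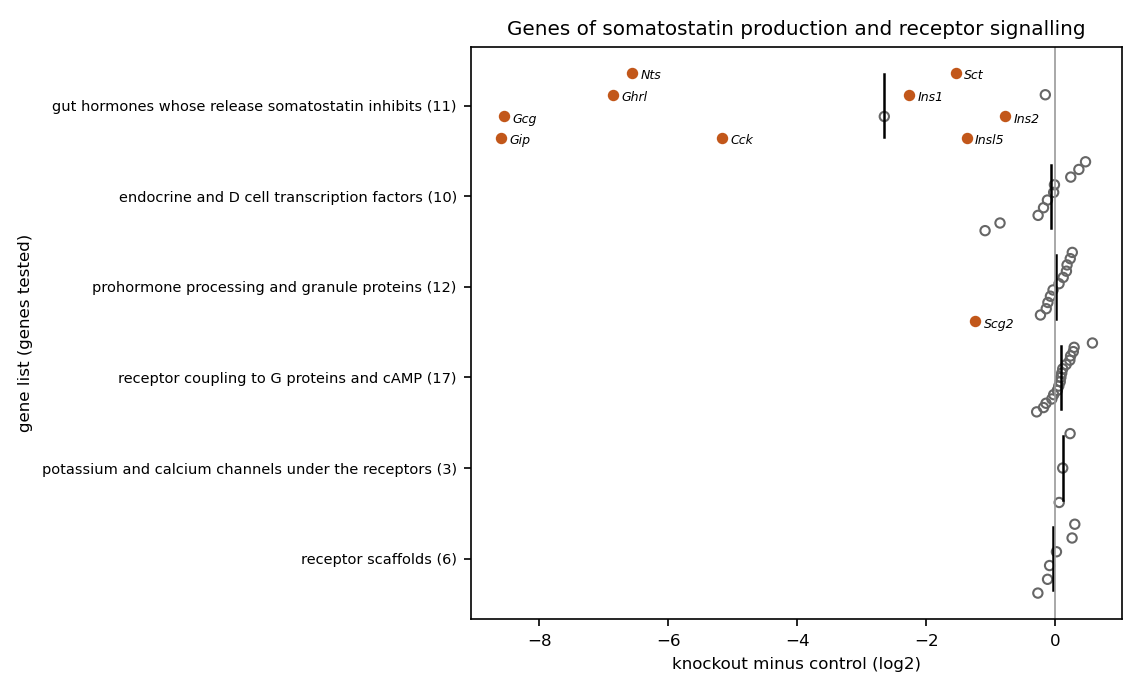
Knockout minus control difference (log2) of each gene tested in 6 lists around somatostatin; filled orange points passed the limma threshold and are named, open points did not, and the black bar is the median of the list. Filled points are 9 hormone genes and Scg2, and the lists for transcription factors, receptor coupling, channels and scaffolds have none.

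The promoter of Sst is shown because Sst was the member that passed the test. The sequence is the 250 bases before the RefSeq start on GRCm38.p6, chr16:23890845-23891094 on the minus strand, from RefSeq, with the cyclic AMP response element TGACGTCA in capitals, 48 bases before the start.
Sst promoter: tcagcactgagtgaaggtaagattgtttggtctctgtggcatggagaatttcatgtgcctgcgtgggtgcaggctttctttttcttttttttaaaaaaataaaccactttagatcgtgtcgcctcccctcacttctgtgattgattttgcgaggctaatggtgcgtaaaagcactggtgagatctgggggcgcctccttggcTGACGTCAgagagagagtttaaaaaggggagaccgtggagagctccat

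This palindrome, the same on both strands, was found in 588 of 32851 RefSeq promoter windows of 300 bases (1.79%). Among the windows of the family, which were available for Sst, Cort, Sstr2, Sstr3 and Sstr4, it was in Sst and in Sstr2, where it lies 58 bases before the start. The X-box consensus bound by RFX factors, searched on both strands, was in none of these windows and in 1.53% of all. No match says only that these letters are not in these windows.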

How the data were processed

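Per the labels, total RNA (TRI-reagent) was amplified from 100 ng and labelled with Cy3, and per the file headers each array was read with Agilent Feature Extraction 10.10.1.1. The deposited intensity used was the processed signal, already background-subtracted; the deposited series matrix intensity was an alternative, with scale and normalization unstated (column medians 143 to 144; Spearman 1.00 against spot medians). Control spots and spots marked as outliers were left out, log2 signals of a probe's spots were averaged, and each array's 75th percentile was subtracted. Genes needed a probe well above background on 4 of 4 arrays of a group; the probe with the highest mean represented a gene. limma 3.58.1 in R 4.3.3 (lmFit, eBayes, two-sided) was fitted over all genes with Benjamini-Hochberg adjustment, after a test on simulated data. At an unadjusted p under 0.05, 4643 genes passed. Sensitivity on arrays is limited by their number.

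Gene names of 29676 of 55681 probes were matched to RefSeq (GRCm38.p6). Of these, 26320 already carried a RefSeq symbol, which was kept, and 2864 were named by accession and 492 by synonym. The file's name was also kept for 26005 probes without a match. Named were the 7 members, the 5 genes nearest Sst, and up to 4 called genes per list by size; other genes named were chosen after their values were seen. One listed gene is not reported here and enters no list count. Members and lists were chosen with earlier results of these data known. Alternatives covered background, scaling, filter, probe choice, series matrix, slide row, replicate number, variance prior and leaving out each array.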

Additional observations from a re-analysis of the deposited data

Results flagged for a closer look

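In 28 groups of 4 values tested for an array far from the others (Dixon's 95% critical value), 2 had one, and chance gives about 1 in 20. For Sst, control 2 was at 1.73 while the other controls were at 1.97 to 2.02, a gap of 0.839 of the group's range. For Sstr2, knockout 1 was at -6.53 while the other knockouts were at -7.38 to -7.29, a gap of 0.893 of the range, on a probe with 0 of 8 arrays above background.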

How the results depend on the processing

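Sst stayed past the threshold in the 18 alternatives that tested it, between -7.51 and -4.99 (adjusted p at most 7.9e-05, limma); leaving out each array in turn gave -7.51 to -7.20. Requiring signal on all 8 arrays gave 0 members lower and 7 pathway genes lower, since Sst, Gcg, Gip and Ins1 then leave the test. Cort, Sstr1, Sstr3, Sstr4 and Sstr5 passed in 0 of 19 alternatives each. Sstr1 turned to 0.0043 (quantile), 0.046 (median centring) and 0.016 (series matrix), and leaving out single arrays gave -0.17 to 0.061. Sstr4 ran from -0.022, without knockout 4, to 0.16. The cause of these turns was not tested. Over all genes, lower calls were 236 with median centring, 183 without a filter and 127 with the replicate block, and 218 to 556 when single arrays were left out, from 225, 283 and 318 without controls 1, 3 and 4 to 232 and 218 without knockouts 1 and 2. Higher calls were 294 without a filter, 248 with the replicate block and 343 to 510 without single arrays (349 without control 1, 351 without knockout 1 and 343 without knockout 2). Pathway genes called higher were 1 with normexp, quantile normalization, median centring, slide row as a block and without knockout 4, and 2 with the series matrix (Adcy2 and Neurog3); leaving out single arrays gave 0 to 1. Replicate numbers did not pair the samples (correlations of deviations -0.37 to 0.067), and with the replicate block 6 pathway genes were lower and Scg2 had an adjusted p of 0.0596 (limma); the members' calls did not change with it. Signal over background limits Sst in the knockout and Sstr2 everywhere.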
